A study of Mus musculus with 12 samples.

Results

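Integrin subunits were followed across estrogen and fulvestrant treatment of cultured fibroblasts: 10 genes, Itga1, Itga3, Itga4, Itga5, Itga6, Itga11, Itgav, Itgb1, Itgb3 and Itgb5, of the 13233 genes in the normalized count table. The rule lists them by name and uses no threshold on their values, and each had 1 row in the table. The cells were hernia-associated fibroblasts (HAFs), labelled skeletal muscle fibroblasts, grown from the lower abdominal muscle of Aromhum mice, which carry the human aromatase gene and its promoters on a bacterial artificial chromosome. All 12 cultures shared this genotype, the low charcoal-stripped serum and 48 h of treatment. The 4 groups of 3 samples received vehicle (ethanol and DMSO), 10 nM estradiol (E2), 10 nM E2 plus 100 nM fulvestrant, or 100 nM fulvestrant alone. Fulvestrant, a drug used in breast cancer, is a pure antiestrogen that occupies the estrogen receptor and lowers its protein level. The labels did not give the age of the animals or say whether replicates 1, 2 and 3 came from separate animals, so p-values measured only the spread between these samples.

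Integrins are receptors made of one α and one β subunit that span the cell membrane, bind the extracellular matrix outside the cell and connect through talin and kindlin to actin inside it. Most α subunits pair with Itgb1, the β1 chain: Itga1 and Itga11 then form collagen receptors, Itga5 the classical fibronectin receptor, Itga3 and Itga6 laminin receptors, and Itga4 a receptor for fibronectin and the adhesion molecule VCAM1. Itgav pairs with Itgb1, Itgb3 or Itgb5 to bind ligands that carry the RGD motif, such as vitronectin, and to activate latent TGF-β, and α11β1 is known as the main receptor for fibrillar collagen on fibroblasts.

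Each sample held 18827792 to 44040507 reads on the listed genes, with a median of 31703872. The reads behind a subunit in a sample ran from 27 (Itga4) to 54592 (Itgb1), with a median of 1457. Samples with the same replicate number deviated together from their group means, and replicate 1 stood apart from replicates 2 and 3 in all 4 groups. All 8 fibroblast markers were in the table. Their summed level was 87646 to 169967 normalized counts with vehicle, 90121 to 190774 with E2, 94161 to 137679 with E2 plus fulvestrant and 97652 to 127279 with fulvestrant alone. The groups overlapped only through replicate 1, which had the lowest sums. Dcn, the largest part of the sum, had 32211 and 36399 in replicate 1 with vehicle and E2. With E2 plus fulvestrant and fulvestrant alone it had 31792 and 33671 there. In replicates 2 and 3 Dcn had 102207 to 115800 without fulvestrant and 70600 to 78273 with it. Few markers of other cells were in the table: 1 of 10 for skeletal muscle (Itga7, with none of Pax7, Myod1, Myog or Des), 2 of 8 for endothelium, 1 of 10 for leukocytes, 4 of 7 for pericytes and smooth muscle and 1 of 8 for epithelium and mesothelium. Esr1, which encodes the receptor that fulvestrant targets, had 489 to 646 normalized counts with E2 against 76.4 to 216 with E2 plus fulvestrant, and 247 to 515 with vehicle against 76.2 to 222 with fulvestrant alone. In bulk RNA, more or fewer cells of a type and more or less RNA per cell cannot be told apart.

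The α subunits whose change with fulvestrant was called both with and without E2 were Itga5 and Itga11, and their upstream sequence is shown as the context of that pair. The RefSeq set held windows for 8 of the 10 subunits, and Itga6 and Itgb3 had none. The 250 bases before the start that RefSeq annotates are given 5′ to 3′ on the strand of the gene, from GRCm38.p6, at chr15:103366792-103367041 on the minus strand for Itga5 and chr9:62677605-62677854 on the plus strand for Itga11. The RefSeq starts differ from the GENCODE gene bounds given for these genes further on: the Itga11 window ends inside the GENCODE gene, which begins at 62677826, and the Itga5 window lies beyond the GENCODE gene end at 103366763 without touching it. Distances to a start are from the RefSeq start. Capitals mark the matches to the searched motifs, here the GC box in Itga5 and the single estrogen receptor arm in Itga11, each on the opposite strand.
Itga5: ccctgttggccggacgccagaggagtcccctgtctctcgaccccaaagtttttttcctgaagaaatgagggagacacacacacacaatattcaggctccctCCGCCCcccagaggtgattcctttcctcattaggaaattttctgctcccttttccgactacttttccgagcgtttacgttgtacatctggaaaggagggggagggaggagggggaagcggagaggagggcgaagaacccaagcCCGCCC
Itga11: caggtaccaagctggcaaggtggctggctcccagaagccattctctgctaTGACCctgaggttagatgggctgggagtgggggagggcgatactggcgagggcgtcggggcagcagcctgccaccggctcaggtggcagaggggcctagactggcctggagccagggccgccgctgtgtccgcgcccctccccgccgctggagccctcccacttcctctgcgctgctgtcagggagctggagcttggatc
The Itga5 window had 55.6% G and C and held 2 matches to the GC box GGGCGG, at 149 and 6 bases before the start. The Itga11 window had 68.4% G and C and held 1 match to GGTCA, one arm of the estrogen response element, at 200 bases before the start. GGGCGG occurred in 32.7% and GGTCA in 35.2% of the 32851 promoter windows of the same length, counted on both strands, and GGTCA also lies within the full element. The full estrogen response element, both inverted arms with their spacer, was found 0.0639% of all windows and in no window of the listed subunits. Neither window of this pair held the TATA box TATAAA, the AP-1 site TGANTCA or the TEAD site GGAATG. These matches describe letters and are not evidence of binding.

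Per kilobase of merged exon, the order of levels was led by the β chains Itgb1 and Itgb5, while the other listed β chain, Itgb3, was lower than 3 of the α chains. Itgb1, the common partner, had a median of 9609 normalized counts per kb over the 12 samples (range 8115 to 10932), and only 0.631% of genes were higher. Itgb5 followed at 2234 (2106 to 3764), then Itgav at 923 (821 to 1562), Itga11 at 715 (537 to 943) and Itga5 at 640 (345 to 946). The ranges of Itgav, Itga11 and Itga5 overlapped, so these neighbours did not differ beyond their spread. Itgb3 (131, 74.8 to 165), Itga3 (108, 78.1 to 127) and Itga6 (64.6, 36.4 to 133) also overlapped, and with the longest coding transcript as the length Itga6 moved to the head of these 3. The lowest were Itga1 at 16.2 (11.0 to 46.5) and Itga4 at 3.6 (2.4 to 7.1), below 93.3% and 99.6% of genes. The ranges of Itga6 and Itga1 overlapped as well, and that of Itga4 overlapped with none.

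**Figure D1:**
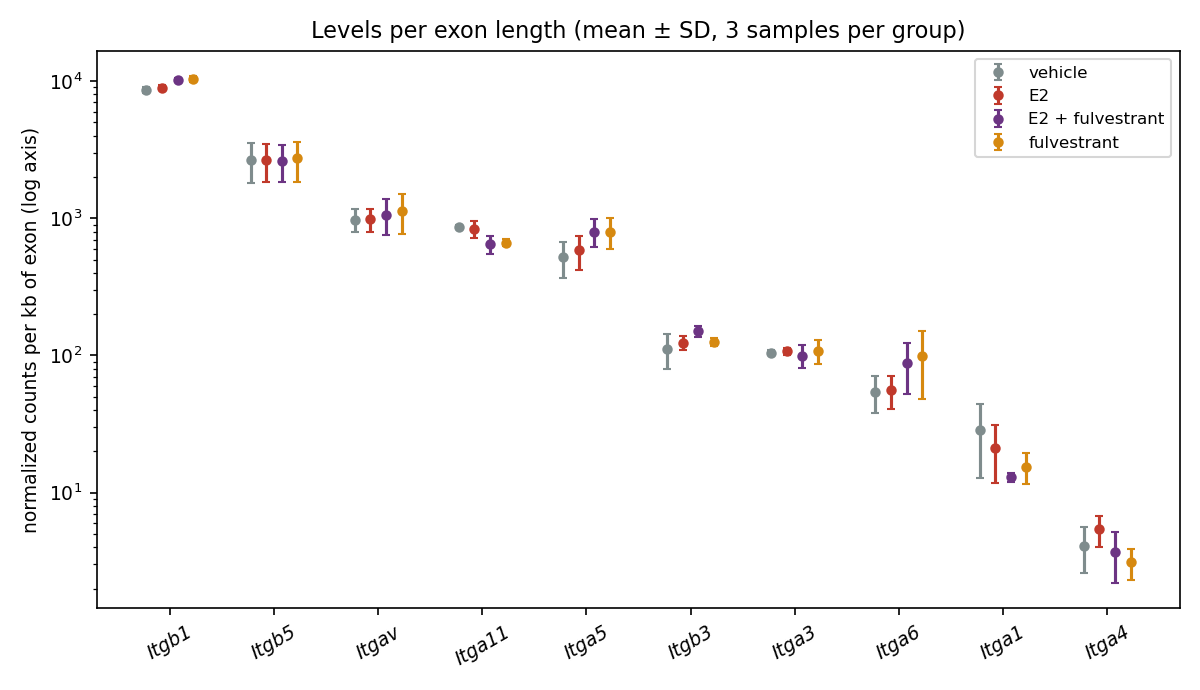
Levels of the 10 integrin subunits in normalized counts per kb of merged exon, on a log axis, with a point and bar for the mean and SD of the 3 samples of each treatment. Itgb1 lay above every other subunit, with samples at 8115 to 10932, and Itga4 below every other, at 2.4 to 7.1.

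To determine whether fulvestrant changed the integrin subunits of E2-treated HAFs, E2 plus fulvestrant was compared with E2. Itga5 and Itga6 rose by 1.39-fold and 1.51-fold and Itga11 fell to 0.77 of its level with E2. These were 3 of the 10 subunits (30%), against 8.68% of all genes called in either direction, with 2 higher (4.6% of all genes) and 1 lower (4.07%) (limma with the replicate number as a block, Benjamini-Hochberg adjusted p under 0.05 and fold over 1.2). The sign was the same in all 3 same-numbered pairs for 7 subunits, against 50% of all genes. The median absolute log2 difference was 0.32 over the 10 subunits and 0.13 over all genes. Without the block none of these 3 calls held, and 8 genes in the whole table were called.

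Itga5 (ENSMUSG00000000555, GRCm38 chromosome 15, 103344286 to 103366763, minus strand) encodes the α chain of the fibronectin receptor α5β1. Normalized counts of Itga5 in replicates 1, 2 and 3 were 1703, 3086 and 2894 with vehicle, 1961, 3441 and 3229 with E2, 2906, 4666 and 4286 with E2 plus fulvestrant, and 2799, 4468 and 4593 with fulvestrant alone. The means were 2561 ± 749, 2877 ± 800, 3953 ± 926 and 3953 ± 1001 (SD, n = 3), in the same order. Replicate 1 was the lowest of each group, and because of it the groups overlapped, although every fulvestrant sample was above the same-numbered sample without it. E2 plus fulvestrant exceeded E2 by 0.47 on the log2 scale (SE 0.05, 95% interval 0.35 to 0.6, adjusted p = 0.00399, and 0.946 without the block). The pair differences were 0.57, 0.44 and 0.41, and the call was kept when any 1 replicate number was left out.

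Itga6 (ENSMUSG00000027111, chromosome 2, 71745616 to 71858416, plus strand) encodes the α chain of the laminin receptors α6β1 and α6β4. Its normalized counts were 329, 519 and 619 with vehicle and 345, 590 and 575 with E2, and they were 421, 987 and 964 with E2 plus fulvestrant and 362, 1133 and 1200 with fulvestrant alone. The means were 489 ± 148, 503 ± 137, 791 ± 321 and 898 ± 466 (SD, n = 3). In replicates 2 and 3 the fulvestrant samples stood well above all others, while in replicate 1 the 4 treatments lay close together and below them. The difference between E2 plus fulvestrant and E2 was 0.59 on the log2 scale (SE 0.11, 95% interval 0.33 to 0.85, adjusted p = 0.022, and 0.973 without the block), from pair differences of 0.28, 0.74 and 0.74. The call was lost without replicate 2 (0.51, adjusted p = 0.082) and without replicate 3 (0.51, adjusted p = 0.159).

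Itga11 (ENSMUSG00000032243, chromosome 9, 62677826 to 62783982, plus strand), the collagen receptor chain, moved the other way. Normalized counts of Itga11 were 4395, 4372 and 4631 with vehicle, 3598, 4841 and 4440 with E2, 2754, 3706 and 3526 with E2 plus fulvestrant, and 3248, 3635 and 3347 with fulvestrant alone. The means were 4466 ± 144, 4293 ± 634, 3329 ± 506 and 3410 ± 201 (SD, n = 3). The lowest E2 sample, replicate 1, was below the highest sample of E2 plus fulvestrant, so those groups overlapped, but the fulvestrant and vehicle groups did not. Itga11 fell by 0.37 on the log2 scale with E2 plus fulvestrant (SE 0.05, adjusted p = 0.00587, and 0.85 without the block), and the pair differences of -0.39, -0.39 and -0.33 were close to each other. The call was lost without replicate 3 (-0.39, adjusted p = 0.0607).

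The abundant β1 chain Itgb1 (ENSMUSG00000025809, chromosome 8, 128685654 to 128733200, plus strand) differed little in size but evenly. Normalized counts of Itgb1 were 33117, 35653 and 36551 with vehicle, 35395, 38167 and 35917 with E2, 40259, 42265 and 42909 with E2 plus fulvestrant, and 40591, 44612 and 41933 with fulvestrant alone. Each fulvestrant sample was above the same-numbered sample without it. One sign in all 6 such pairs was found for 27.2% of all genes. E2 plus fulvestrant was 1.15-fold of E2 (log2 difference 0.2, SE 0.08, adjusted p = 0.181), which was not called.

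Itga1 (ENSMUSG00000042284, chromosome 13, 114953096 to 115101964, minus strand) is the other listed collagen receptor chain. Normalized counts of Itga1 were 866, 344 and 380 with vehicle, 604, 294 and 293 with E2, 222, 252 and 248 with E2 plus fulvestrant, and 205, 348 and 310 with fulvestrant alone. The samples of E2 plus fulvestrant were all below those of E2, and the widest gaps were in replicate 1, where the samples without fulvestrant were the 2 highest of all. The difference of -0.63 (SE 0.24, 95% interval -1.21 to -0.06) was not called (adjusted p = 0.151), with pair differences of -1.44, -0.22 and -0.24. A Gm49395 exon on the same strand covers 3.68% of the Itga1 exons, so a part of these reads may be uncertain.

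Itga4 (ENSMUSG00000027009, chromosome 2, 79255426 to 79333123, plus strand), the α4 chain, was the lowest of the subunits. Normalized counts of Itga4 were 81.6, 46.1 and 44.2 with vehicle, 98.6, 62.4 and 65.5 with E2, 76.8, 44.0 and 36.0 with E2 plus fulvestrant, and 54.3, 33.1 and 43.8 with fulvestrant alone. Replicate 1 was the highest in each group, and each fulvestrant sample was below its same-numbered partner. In replicate 3 fulvestrant alone and vehicle were nearly tied, with a log2 difference of -0.01. The log2 difference between E2 plus fulvestrant and E2 was -0.57 (SE 0.19, 95% interval -1.03 to -0.11, adjusted p = 0.117), which was not called. Exons of Cerkl on the other strand cover 8.04% of the Itga4 exons, and the counting used strand.

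Itgav (ENSMUSG00000027087, chromosome 2, 83724397 to 83806916, plus strand), the αv chain, had values set mostly by the replicate number. Normalized counts of Itgav were 12738, 8943 and 9762 with vehicle, 12722, 10140 and 8821 with E2, 15249, 9735 and 9351 with E2 plus fulvestrant, and 16785, 10068 and 9734 with fulvestrant alone. Replicate 1 was the highest of each group and the groups overlapped. The log2 difference was 0.1 (95% interval -0.08 to 0.27, adjusted p = 0.44).

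Itgb5 (ENSMUSG00000022817, chromosome 16, 33829665 to 33949338, plus strand), a β partner of αv, had the narrowest interval around 0. Normalized counts of Itgb5 were 13021, 7986 and 7483 with vehicle, 12827, 7886 and 7605 with E2, 12542, 7841 and 7620 with E2 plus fulvestrant, and 13373, 7706 and 8057 with fulvestrant alone. Within a replicate number the 4 treatments were nearly level, and replicate 1 was above replicates 2 and 3 throughout. The log2 difference was -0.01 (95% interval -0.13 to 0.11, adjusted p = 0.895).

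Itgb3 (ENSMUSG00000020689, chromosome 11, 104608000 to 104670476, plus strand) encodes the other β partner of αv in the list, the chain of the vitronectin receptor αvβ3. Normalized counts of Itgb3 were 441, 770 and 778 with vehicle, 641, 806 and 744 with E2, 975, 824 and 854 with E2 plus fulvestrant, and 783, 769 and 683 with fulvestrant alone. The samples of E2 plus fulvestrant were all above those of E2 and of fulvestrant alone, and the lowest value was vehicle replicate 1. The difference from E2 was 0.28 on the log2 scale (SE 0.11, 95% interval 0.01 to 0.55), with an adjusted p of 0.17. The pair differences were 0.6, 0.03 and 0.2, and without replicate 1 the difference was 0.12 (adjusted p = 0.385).

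Itga3 (ENSMUSG00000001507, chromosome 11, 95044474 to 95076801, minus strand) encodes the laminin receptor chain α3. Normalized counts of Itga3 were 575, 630 and 598 with vehicle, 576, 639 and 624 with E2, 446, 608 and 656 with E2 plus fulvestrant, and 477, 723 and 644 with fulvestrant alone. The groups overlapped, and the 2 lowest samples of all were replicate 1 with fulvestrant. The log2 difference of E2 plus fulvestrant from E2 was -0.12 (95% interval -0.36 to 0.12, adjusted p = 0.481). Between E2 and E2 plus fulvestrant the 3 values of a group lay wholly to one side for 3 of the 10 subunits (Itga1, Itgb1 and Itgb3), against 12.5% of all genes.

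**Figure D2:**
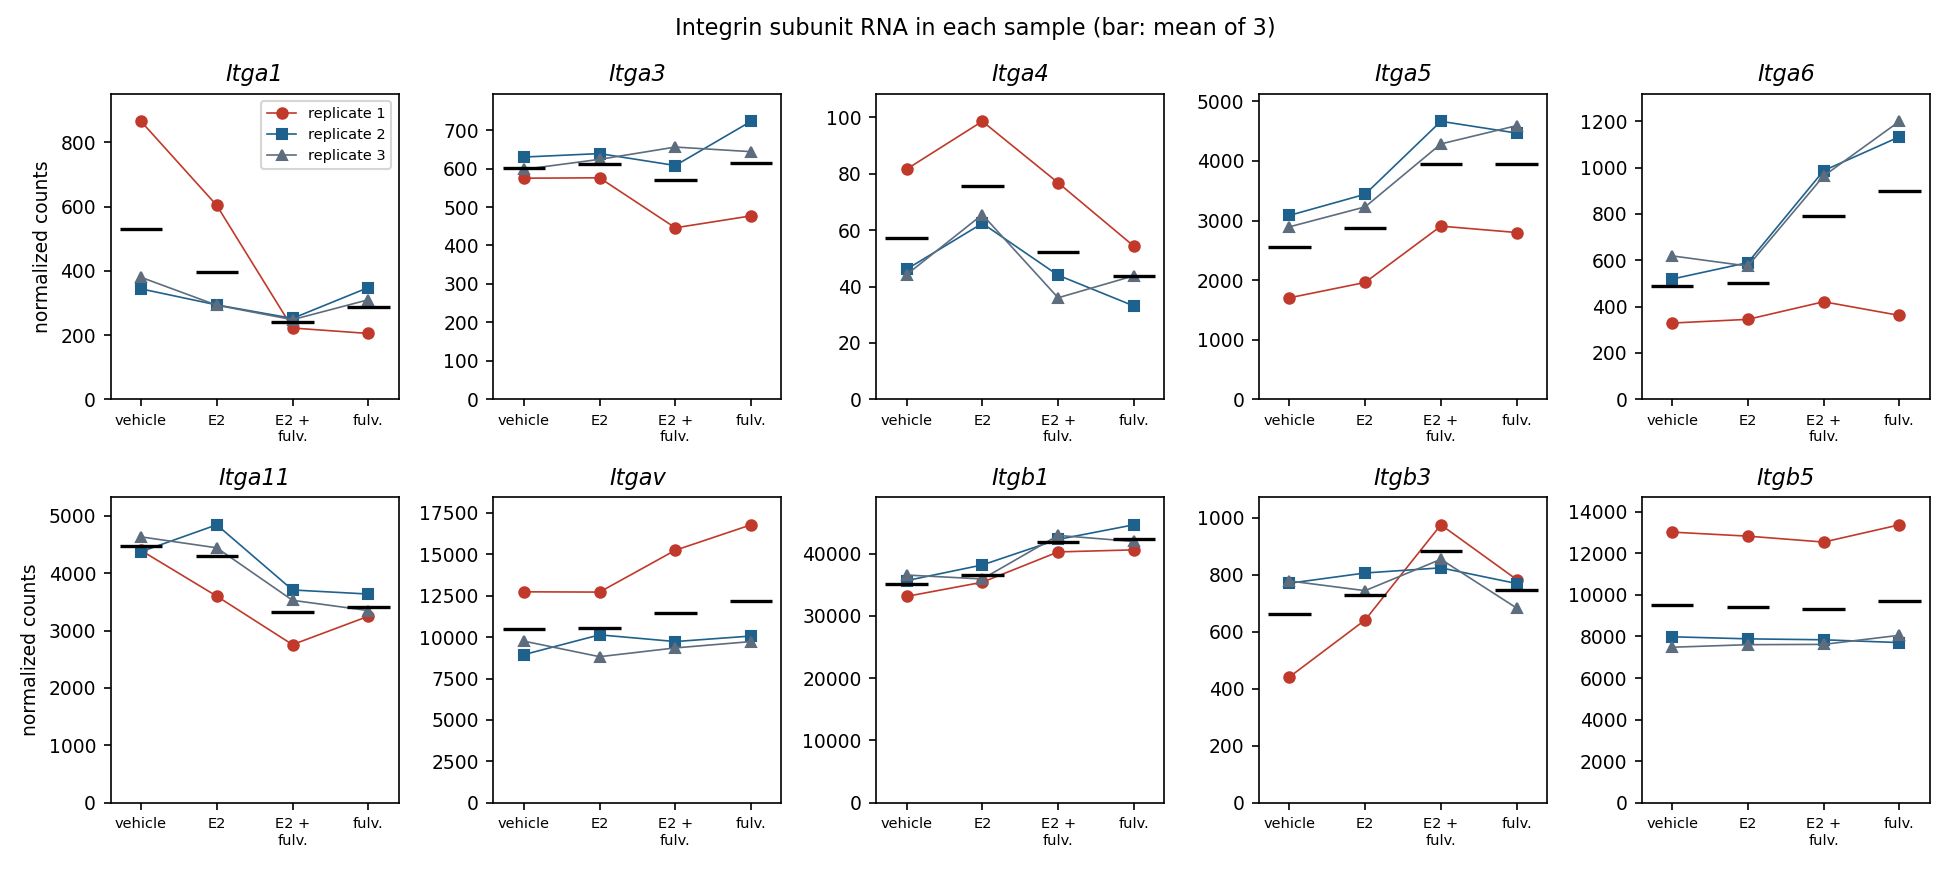
Normalized counts of each integrin subunit in the 12 samples, with 1 panel per gene, the 4 treatments along the x axis and a line joining samples of one replicate number and a black bar at the group mean. Itga5, Itga6 and Itgb1 were above the same-numbered sample without fulvestrant in all 6 pairs. Itga4 and Itga11 were below it in all 6, Itga4 by only 0.01 on the log2 scale in 1 of them. For Itgb5 replicate 1 lay above replicates 2 and 3, which overlapped.

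Fulvestrant alone was then compared with vehicle, to determine whether these differences were also present without added E2. Itga5 rose by 1.56-fold and Itga11 fell to 0.76 of its vehicle level, and 2 of the 10 subunits were called against 5.23% of all genes, with 1 higher (2.74% of all genes) and 1 lower (2.49%). All 3 same-numbered pairs had one sign for 5 subunits, against 45.1% of all genes. The 2 comparisons share no samples, although they share replicate numbers. Itga5 was higher by 0.64 on the log2 scale (SE 0.07, 95% interval 0.47 to 0.81, adjusted p = 0.00665, and 0.978 without the block), with pair differences of 0.72, 0.53 and 0.67. Itga11 was lower by 0.39 on that scale, a difference of -0.39 (SE 0.07, adjusted p = 0.0317, and 0.355 without the block), with pair differences of -0.44, -0.27 and -0.47.

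Both calls rested on 3 pairs and were lost when 1 of 2 pairs was left out. For Itga5 the difference was 0.69 without replicate 2 (adjusted p = 0.0539) and 0.63 without replicate 3 (0.0727). For Itga11 it was -0.45 (adjusted p = 0.148) and -0.35 (0.173). Itga11 and Itgb1 were the 2 subunits whose fulvestrant and vehicle samples did not overlap, against 11.1% of all genes.

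Itga6 had the second largest absolute difference of the 10 subunits in this comparison, 0.74 on the log2 scale (1.67-fold, SE 0.18, 95% interval 0.3 to 1.17), and was not called (adjusted p = 0.072). Its pair differences were 0.14, 1.12 and 0.95, so replicate 1 differed from the others, and without replicate 1 it was called (1.04, adjusted p = 1.84e-05). Itgb1 was 1.21-fold of vehicle (0.27, 95% interval 0.0 to 0.54, adjusted p = 0.226), with pair differences of 0.29, 0.32 and 0.2. When all 12 samples shared one fit, Itga6 (adjusted p = 0.0147) and Itgb1 (0.0242) joined Itga5 and Itga11, which gave 4 subunits called and 1648 genes in the whole table in place of 692.

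Itga1 had the largest mean difference from vehicle, -0.78 on the log2 scale, with an interval from -1.64 to 0.07 (adjusted p = 0.267). Its pair differences of -2.07, 0.02 and -0.3 showed that replicate 1 carried the mean. For Itga4 the difference was -0.35 (adjusted p = 0.408) and for Itgav 0.19 (0.324). The remaining subunits were at 0.21 for Itgb3 (0.561), 0.03 for Itgb5 (0.854) and 0.01 for Itga3 (0.967).

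**Figure D3:**
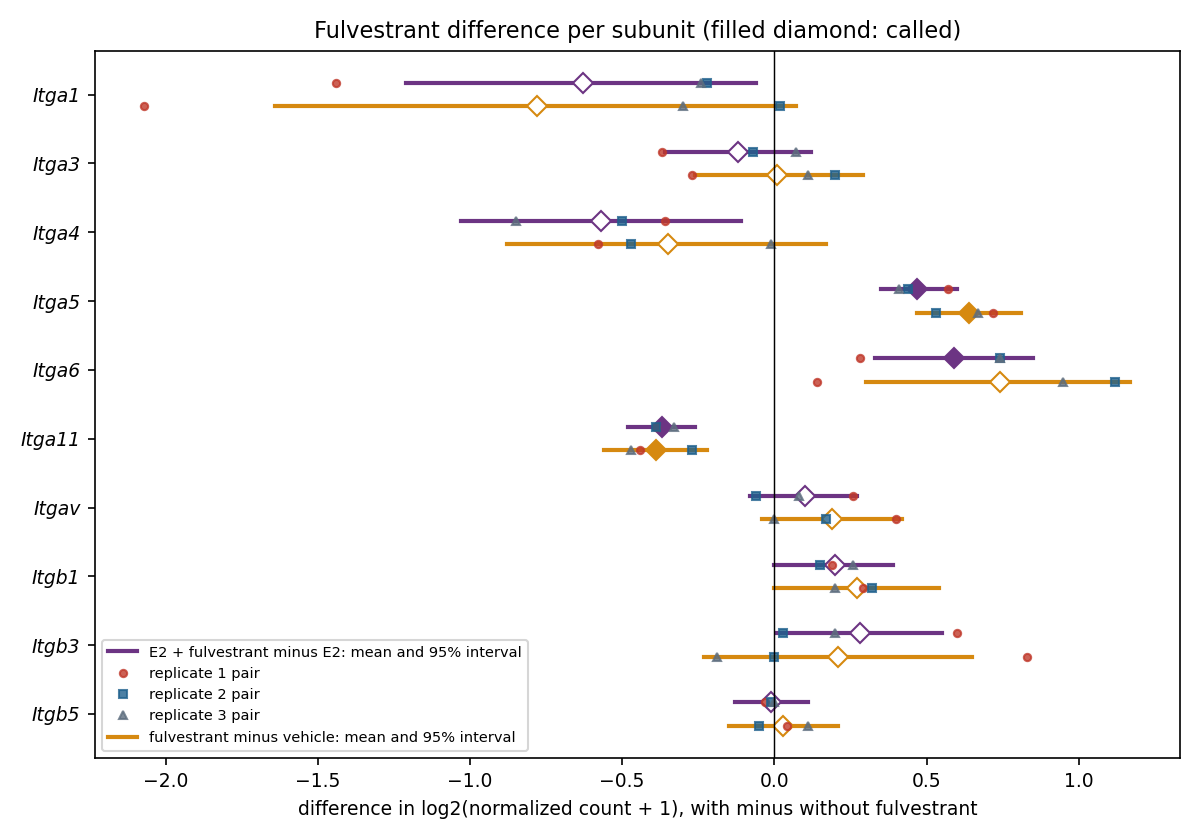
Difference in log2(normalized count + 1) for each integrin subunit with its 95% interval, for E2 plus fulvestrant minus E2 and fulvestrant minus vehicle, with small points for the 3 same-numbered pairs. Itga5 lay at 0.47 and 0.64 and Itga11 at -0.37 and -0.39, while the pair points of Itga1 ran from -2.07 to 0.02.

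With the 6 fulvestrant samples set against the 6 without it, a grouping added after the data were seen, 5 subunits were called, against 15.5% of all genes, with 2 higher (7.71% of all genes) and 3 lower (7.81%). None of these 5 calls held without the block. Itga5 differed by 0.56 (SE 0.04, adjusted p = 4.4e-06), Itga6 by 0.66 (SE 0.12, adjusted p = 0.00221) and Itga11 by -0.38 (SE 0.06, adjusted p = 0.000729). Itga4 at -0.46 (SE 0.13, adjusted p = 0.0219) and Itga1 at -0.71 (SE 0.24, adjusted p = 0.0477) were also called. Itgb1 passed the adjusted p (0.23, SE 0.05, 0.00514) but at 1.18-fold stayed under the fold threshold of 1.2.

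These pooled calls differed in how they depended on single replicates. Itga5 and Itga11 kept the call when any 1 replicate number was left out, whereas the Itga4 call was lost in each case (adjusted p = 0.0849, 0.144 and 0.0786 without replicates 1, 2 and 3). The Itga6 call was lost without replicate 2 (adjusted p = 0.0627) or 3 (0.0605). For Itga1 the difference without replicate 1 was -0.18 (adjusted p = 0.127), and the call was also lost without replicate 2 (-1.01, adjusted p = 0.0629), without replicate 3 (-0.93, 0.111) and after quantile normalization (0.0587). The sign was the same in all 6 pairs for 5 subunits, Itga5, Itga6 and Itgb1 upward and Itga4 and Itga11 downward, against 27.2% of all genes. For Itga4 this included a near tie at -0.01.

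As the ratio of the fibronectin receptor chain to the collagen receptor chain, log2(Itga5/Itga11) was -1.37, -0.5 and -0.68 with vehicle and -0.88, -0.49 and -0.46 with E2. It was 0.08, 0.33 and 0.28 with E2 plus fulvestrant and -0.21, 0.3 and 0.46 with fulvestrant alone. These are ratios of read counts, not per length, so they show a shift between samples and not which chain was more abundant. Every sample with fulvestrant had a higher ratio than every sample without it. The pair sets a subunit called higher over one called lower in these same samples, so this separation follows in part from the choice. How often other gene pairs separate in this way was not counted. The other 3 ratios computed, which were not built from opposite calls, overlapped between samples with and without fulvestrant. log2(Itga6/Itga3), between the laminin receptor chains, was -0.8 to 0.05 without fulvestrant and -0.4 to 0.9 with it, log2(Itga5/Itgav) was -2.9 to -1.45 and -2.58 to -1.06, and log2(Itgb3/Itgb5) was -4.88 to -3.26 and -4.09 to -3.16. Within same-numbered pairs, log2(Itga6/Itga3) and log2(Itga5/Itgav) were higher with fulvestrant in every pair. log2(Itgb3/Itgb5) was higher in all but replicate 3 of fulvestrant alone against vehicle. The 4 ratios were formed with the genes' values known and are given without a test.

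The effect of E2 itself was addressed by comparing E2 with vehicle. No subunit was called by limma, against 0.431% of all genes, and 3 subunits had an unadjusted p under 0.05, against 14.5% of all genes. The 2 groups overlapped for all 10 subunits (5.19% of all genes did not overlap), and 4 subunits had one sign in all 3 pairs, against 39% of all genes. Itga1 was lower by 0.37 on the log2 scale, a difference of -0.37 (SE 0.09, 95% interval -0.58 to -0.17, unadjusted p = 0.00297, adjusted p = 0.169), and it was called when replicate 2 was left out (-0.45, adjusted p = 0.0143). Itga5 differed by 0.17 (95% interval 0.07 to 0.28, adjusted p = 0.202) and Itga4 by 0.42 (0.01 to 0.82, 0.335). Itga5 had a positive difference both with E2 against vehicle and with fulvestrant against its partner group, the former not called. The other 7 subunits had adjusted p-values from 0.493 to 0.972.

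In the presence of fulvestrant, E2 plus fulvestrant was compared with fulvestrant alone. No subunit and no other gene in the table was called by limma (0% of genes), while 516 genes (3.9%) and 1 subunit had an unadjusted p under 0.05. That subunit was Itgb3, higher by 0.25 on the log2 scale with E2 plus fulvestrant (SE 0.07, 95% interval 0.09 to 0.4, unadjusted p = 0.00585, adjusted p = 0.998). It was also the 1 subunit whose 2 groups did not overlap, against 2.42% of all genes. Whether the response to E2 differed with and without fulvestrant was tested as an interaction over all 12 samples. It was called for no gene (0%; 501 genes, or 3.79%, at an unadjusted p under 0.05), and no subunit had an unadjusted p under 0.05. The nearest was Itga5, at 0.17 (unadjusted p = 0.0505).

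The share of variance taken by treatment and by replicate number set the subunits apart. Treatment accounted for 84.2% of the variance of log2 values for Itgb1, 66.7% for Itga11, 45.8% for Itga1 and 40.5% for Itga5, and the median over all genes was 17.9%. The replicate number accounted for 99.1% for Itgb5, 85.4% for Itgav, 65.2% for Itga6 and 58.6% for Itga5, with a median of 57.7% over all genes. For Itga5 only 0.904% was left over, whereas 51.6% was left for Itgb3 and 45.3% for Itga1. Replicate 1 was below replicates 2 and 3 in all 4 groups for Itga3, Itga5, Itga6 and Itgb1, and above them in all 4 for Itga4, Itgav and Itgb5.

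**Figure D4:**
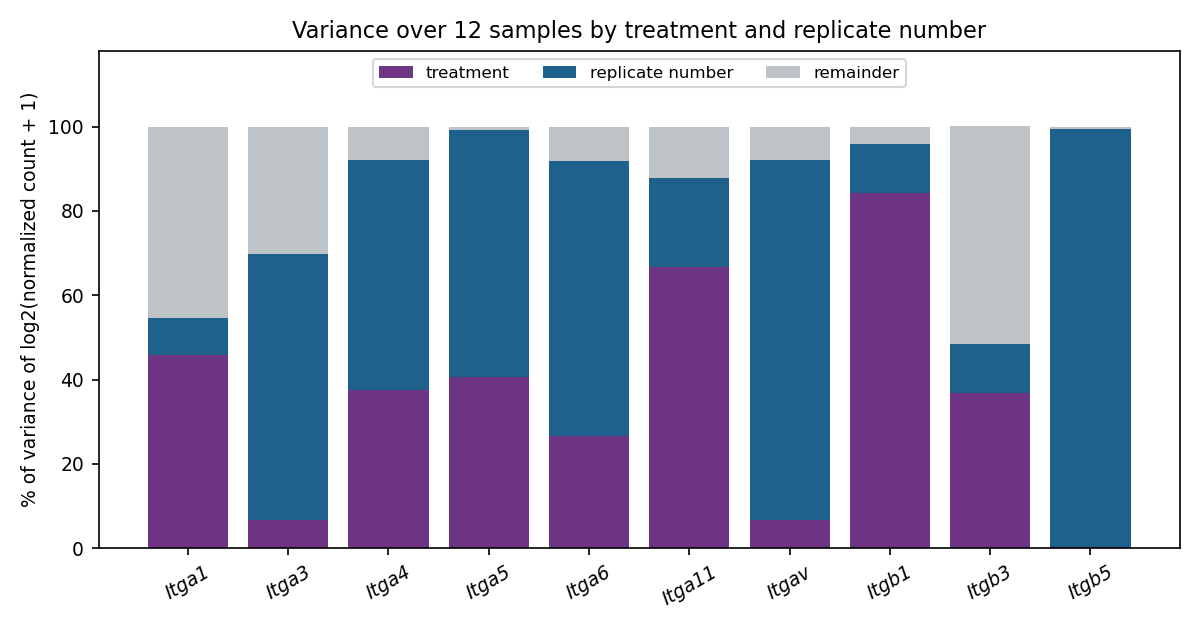
Share of the variance of log2(normalized count + 1) over 12 samples taken by treatment, by replicate number and by the remainder, as stacked bars in percent for each integrin subunit. Treatment took 84.2% for Itgb1 and replicate number took 99.1% for Itgb5.

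Genes with the most similar pattern over the 12 samples, once each replicate number had been centred, were listed for the called subunits by Pearson's r as a measure of likeness. For Itga5 they were Slc7a5 (0.993), an amino acid transporter chain, Serpinb6a (0.992) and Ube2g2 (0.991). Lrp8 (0.988), Tnfrsf23 (0.988) and Rab31 (0.987) were closest to Itga6. Kalrn (0.98), Nhs (0.979) and Kdm5b (0.978), a histone demethylase, were closest to Itga11. The 12 samples share the same treatments and replicate numbers, and the values are given as a description.

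Of the 16 other integrin subunits listed, 9 were in the table and the rest were not analysed here. With E2 plus fulvestrant against E2, 1 of the 9 fell, Itga2b (-0.54, adjusted p = 0.0464), and none rose, against 8.68% of all genes called (4.07% lower), with a list median of -0.16 against 0.012 for all genes. None was called with fulvestrant alone against vehicle (5.23% of all genes). Itga2, a collagen receptor chain named here after its values were seen, had 8910, 975 and 1034 normalized counts with vehicle, 6573, 1097 and 894 with E2, 2161, 831 and 725 with E2 plus fulvestrant, and 2192, 946 and 774 with fulvestrant alone. Replicate 1 was far above the others in each group, and the Itga2 difference was not called between E2 plus fulvestrant and E2 (-0.77, adjusted p = 0.0897) or between fulvestrant and vehicle (-0.83, 0.206). With 6 samples against 6, 3 of the 9 were called lower, against 7.81% of all genes: Itga2 (-0.8, adjusted p = 0.0235), Itga2b (-0.48, 0.0239) and Itgb8 (-0.32, 0.00899).

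Among the proteins that link integrins to actin or switch them on, 24 of 25 were in the table. With E2 plus fulvestrant against E2, 5 rose and 1 fell, where 4.6% of all genes were called higher and 4.07% lower, and the list median was 0.04. Actn1, an α-actinin that crosslinks actin at adhesions, rose by 0.89 (adjusted p = 0.000968), Lims2, a partner of the integrin-linked kinase, by 0.96 (0.0037), and Tns1, a tensin that binds β tails, by 0.69 (0.0059). Parvb (0.45) and Pxn (0.35), which encodes the adhesion scaffold paxillin, also rose. Tln2, a talin that binds and activates β tails, fell by 0.56, at -0.56 (0.00322).

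With fulvestrant alone against vehicle, 4 of these 24 rose and 1 fell, where 2.74% of all genes were called higher and 2.49% lower, and the list median was 0.12. Actn1 (0.94, adjusted p = 0.00306), Lims2 (0.77, 0.022), Tns1 (0.71, 0.0202) and Pxn (0.33) were higher, and Tln2 was lower (-0.43, 0.0368). None of the 5 integrin inactivators in the list was called in either comparison, where 8.68% and 5.23% of all genes were called, and a list this short says little at such shares. Of the 11 membrane partners, 2 rose and 1 fell with E2 plus fulvestrant against E2 (4.6% of all genes higher, 4.07% lower), and 2 rose with fulvestrant against vehicle (2.74% higher). Plaur, the urokinase receptor, rose by 0.86 in the former (adjusted p = 0.014) and by 1.1 in the latter (0.0424). Slc3a2, the CD98 heavy chain that binds β tails, rose by 0.41 (0.0053) and 0.55 (0.0144), in that order. Cav1, which encodes caveolin-1, fell with E2 plus fulvestrant against E2 (-0.43, 0.00356), while it was not called with fulvestrant against vehicle (0.03, 0.928) or with E2 against vehicle (0.45, 0.0772).

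The matrix ligands of these receptors moved in both directions. Of 11 measured ligands of RGD-binding integrins, 4 rose and 3 fell with E2 plus fulvestrant against E2 (8.68% of all genes called in either direction), with a median of 0.11. Ccn1 (0.73, adjusted p = 0.000813), Spp1, which encodes osteopontin (0.75, 0.0125), Ccn2 (0.49) and Tnc, which encodes tenascin-C (0.31), were higher. Edil3 (-1.33, 0.000691), Postn, which encodes periostin (-0.75, 0.00545), and Fbn1, which encodes fibrillin-1 (-0.58), were lower. Fn1, which encodes the fibronectin bound by α5β1, was not called (0.27, 95% interval -0.17 to 0.7, adjusted p = 0.39).

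With fulvestrant alone against vehicle, 1 RGD ligand rose and 3 fell (5.23% of all genes called in either direction): Ccn1 was higher (0.71, adjusted p = 0.0278), and Postn (-0.96, 0.0148), Edil3 (-0.82, 0.00996) and Npnt, which encodes nephronectin (-2.1, 0.0435), were lower. Fn1 was again not called (0.29, 0.527). With E2 against vehicle, where 0.106% of all genes were called lower, Ccn2 (-0.38, 0.0383) and Npnt (-0.64, 0.0338) were lower.

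For the collagen-binding receptors, 10 of 10 ligand genes were measured, and 2 rose and 1 fell with E2 plus fulvestrant against E2 (8.68% of all genes). The chains of basement membrane collagen IV, Col4a1 (0.6, adjusted p = 0.00967) and Col4a2 (0.51, 0.00569), were higher, and Col1a1, a chain of fibrillar collagen I, was lower (-0.67, 0.00954). With fulvestrant alone Col4a1 (0.68, 0.0181) and Col4a2 (0.56, 0.0194) were higher and none was lower (5.23% of all genes). Of 6 measured laminin chains of 11 listed, Lama4 was lower with E2 plus fulvestrant against E2 (-0.54, 0.00326) and with fulvestrant against vehicle (-0.61, 0.0187). No gene of these lists was called between E2 plus fulvestrant and fulvestrant alone. None of the calls of these lists held without the replicate block in the other comparisons of groups of 3. These were E2 plus fulvestrant against E2, fulvestrant alone against vehicle, and E2 against vehicle. With 6 samples against 6, Actn1 (0.92, adjusted p without the block 0.000134), Slc3a2 (0.48, 0.000521), Ccn1 (0.72, 0.00166), Lama4 (-0.58, 0.00208), Col4a1 (0.64, 0.00525) and Col4a2 (0.54, 0.00527) were called with the block and without it. No listed or other integrin subunit was called without it.

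**Figure D5:**
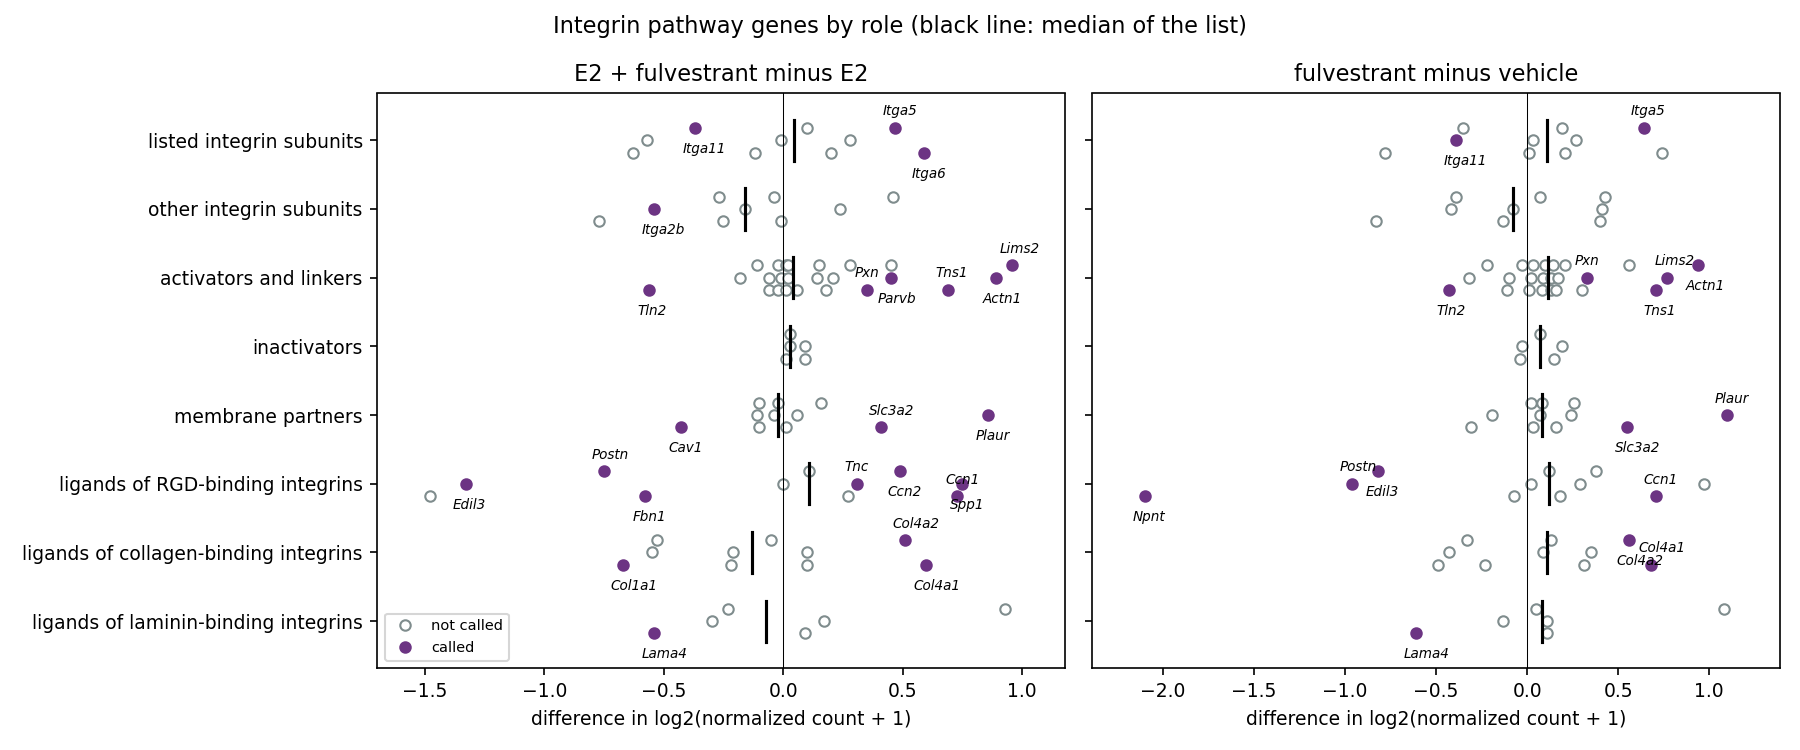
Difference in log2(normalized count + 1) for the listed integrin subunits and the genes of 7 pathway lists, with E2 plus fulvestrant minus E2 and fulvestrant minus vehicle in separate panels, filled points for called genes and a black line for each list median. Actn1, Lims2 and Tns1 lay to the right in both panels with Itga5, and Itga11, Tln2, Postn and Lama4 to the left.

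Of the 8 fibroblast markers, 2 were called in each fulvestrant comparison, both lower, where 4.07% of all genes were lower with E2 plus fulvestrant against E2 and 2.49% with fulvestrant against vehicle. Esr1 differed by -2.26 (adjusted p = 0.00242) and -1.46 (0.00757), and Lum, which encodes lumican, by -1.31 (0.00186) and -1.18 (0.00653). The other 6 were not called and did not share a sign: Fbln1 (0.21 and 0.32) and Col6a2 (0.1 and 0.35) had positive differences, and Dcn (-0.42 and -0.34), Thy1 (-0.41 and -0.4), Pdgfra (-0.2 and -0.26) and Pdgfrb (-0.08 and -0.18) negative ones. With 6 samples against 6, Dcn was also called lower (-0.38, adjusted p = 0.0113), against 7.81% of all genes. No pericyte, smooth muscle, endothelial, leukocyte, epithelial or mesothelial marker in the table was called in either fulvestrant comparison. The Schwann cell marker S100b was lower with 6 samples against 6 (-0.68, adjusted p = 0.00765), where 7.81% of all genes were called lower and 7.71% higher. Of the 4 pericyte and smooth muscle markers, Notch3 was lower (-0.58, 0.00845) and Myh11 higher (0.92, 0.0321), while Cspg4, which made up most of their summed level of 2024 to 4673, was not called (adjusted p = 0.979). The part of these shifts in the integrin differences was not tested.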

How the data were processed

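RNA was sequenced from 12 HAF cultures after ribosomal RNA depletion. The submitters' processing notes name Trimmomatic 0.39, STAR 2.5.2, HTSeq 0.13.5, DESeq2 1.37 and the mm10 build, and counting used strand (the reverse setting of HTSeq). The deposited table is a normalized signal per gene: the authors scaled the reads of each sample by its own size factor. No listed gene fell below 10 reads in any sample, so a gene that was low in 1 group was not analysed here. 100.0% of values were whole reads within 0.01 read after that division was undone, and depth per sample came from these reads. Gene symbols came from GENCODE M21 (13149 of 13233 identifiers), and merged exons gave lengths.

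log2(value + 1) was fitted with limma 3.58.1 in R 4.3.3 (moderated with a trend), using the samples of the 2 groups compared and the replicate number as a block, with Benjamini-Hochberg adjustment over 13233 genes. Calls required an adjusted p under 0.05 and a fold over 1.2; the interaction used all 12 samples and the adjusted p alone. Fold changes are on the log2(value + 1) scale and slightly understate changes of low genes. The block was used because samples of one number shared the direction of their deviations from group means (correlations 0.63 to 0.92 over 18 pairs of samples). Replicates 2 and 3 also correlated with each other, within that range (0.63 to 0.79). Centring on the group mean then sets replicate 1 opposite to them (-0.86 to -0.71), so those values are no separate ground for the block. The labels do not say what a number marks. Scripts were tested on simulated data. The subunits and gene lists were chosen with earlier results of these data known. The rule named all 10 subunits, up to 4 called genes per list with the largest difference between E2 and E2 plus fulvestrant (or, where fewer than 2 were called, between fulvestrant and vehicle), and the 3 genes most like each subunit called with E2; the remaining called genes of the lists, Itga2, Itgb8, Fn1 and further marker genes were added after their values were seen. Alternatives were no block, one fit of all samples, a pseudocount of 8, a mean of at least 100, quantile normalization and leaving out each replicate number. One marker gene is not reported here.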

Additional observations from a re-analysis of the deposited data

How the results depend on the processing

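Without the replicate block 8 genes and 0 subunits were called between E2 and E2 plus fulvestrant (1148 and 3 with the block), 0 genes between E2 and vehicle (57), 0 genes and 0 subunits between fulvestrant and vehicle (692 and 2), and 310 genes and 0 subunits with 6 samples against 6 (2054 and 5). With all 12 samples in one fit, 10 genes were called between E2 and vehicle, and 1648 genes and 4 subunits between fulvestrant and vehicle. Leaving out 1 replicate number gave 351 to 1956 genes and 1 to 3 subunits for E2 plus fulvestrant against E2, 6 to 279 genes and 0 to 1 subunits for E2 against vehicle, 20 to 2208 genes and 0 to 3 subunits for fulvestrant against vehicle, 0 to 147 genes for E2 plus fulvestrant against fulvestrant, 0 to 11 genes for the interaction, and 1335 to 2332 genes and 2 to 3 subunits for 6 against 6. Without replicate 1 the counts over all genes were the highest in both fulvestrant comparisons. The cause was not tested.

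No called subunit changed direction. Some differences that were not called did, the widest being Itgb3 with fulvestrant against vehicle and Itga1 and Itga4 in the interaction. Leaving out 1 replicate number gave, for E2 against vehicle, -0.02 to 0.13 (Itga6), -0.17 to 0.04 (Itga11), -0.07 to 0.09 (Itgav) and -0.02 to 0.0 (Itgb5); for fulvestrant against vehicle, -0.08 to 0.15 (Itga3), -0.1 to 0.41 (Itgb3) and -0.01 to 0.07 (Itgb5); for E2 plus fulvestrant against fulvestrant, -0.02 to 0.06 (Itga5), -0.26 to 0.01 (Itga6), -0.1 to 0.05 (Itga11) and -0.04 to 0.01 (Itgb1); for the interaction, -0.34 to 0.09 (Itga1), -0.1 to 0.43 (Itga4), -0.09 to 0.03 (Itga11) and -0.21 to 0.09 (Itgb3); and for 6 against 6, -0.13 to 0.08 (Itga3) and -0.01 to 0.03 (Itgb5). Quantile normalization turned Itgav in E2 against vehicle (-0.04), Itga3 (-0.01) and Itgb5 (-0.04) in fulvestrant against vehicle, Itga5 (-0.01) and Itgb1 (0.01) in E2 plus fulvestrant against fulvestrant, Itgb1 in the interaction (-0.01) and Itgb5 in 6 against 6 (-0.04). A pseudocount of 8 and a mean of at least 100, which left 11274 genes and 9 subunits (Itga4 dropped), moved no count by more than 1.5 times.

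The same tests with edgeR's quasi-likelihood test, DESeq2's Wald test and edgeR's TMM scaling were not run. The groups of 3 and the unnamed source of the replicate effect limit these results, and under the block leaving out 1 sample of a pair amounts to leaving out the pair.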
